A study of Mus musculus with 10 samples.

Results

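The genes described here are 45 listed members of the epithelial junction and polarity programme, out of 18901 genes in the deposited table. The list is one of gene names, with genes of the tight junction, the desmosome, the polarity machinery and the regulators of epithelial character. Its rule uses no measured value, but it was drawn up with earlier results of these data known. By role they are 14 claudins, 8 other tight junction genes, 8 desmosome genes, 6 transcription and splicing regulators, 5 polarity, trafficking and cadherin genes and 4 membrane proteases and their inhibitors. All 45 were found in the table and 44 had enough reads to be tested, the exception being *Cldn8*, with values of 0 to 3.13 in the 10 libraries.

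Libraries of poly(A) RNA came from 5 mouse lines, labelled as a cross of mf1 and 129. The Oct4-GFP mouse embryonic fibroblasts (MEF), grown with 10% serum, were sampled at passages 2 and 4. Each of the other lines, grown in KSR medium with LIF, was sampled at passages 5 and 25: pre-iPS cells, 'control' iPS cells, and clones 1 and 2 of 'rNetrin-1 derived' iPS cells. Retroviruses for Oct4, Sox2, Klf4 and c-Myc were used for reprogramming, with recombinant Netrin-1 added for the clones, and the pre-iPS line is a partially reprogrammed one, with its viral factors still active and no signal from the GFP reporter. The labels do not say that the 2 libraries of a line come from separate derivations, so a p-value here measures the spread between these libraries, which may be partly technical. Outside MEF, in comparisons of lines, that spread includes the change from passage 5 to passage 25. The coefficient of variation beyond counting was 1.88% between the MEF libraries and 16.1 to 19.6% within the other lines. The fit of the lines uses the same estimate of spread for all of them. The labels number the 2 clones but give no clone for the pre-iPS and control iPS cells. Whether their libraries at passages 5 and 25 come from 1 clone is not stated, and each is treated here as 1 line.

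Epithelial cells are held to each other by tight junctions, which seal the space between cells with claudins and occludin on a scaffold of zonula occludens proteins, and by desmosomes, which tie desmosomal cadherins through plakoglobin, plakophilins and desmoplakin to keratin filaments. The Crumbs and Par complexes set the apical side of the cell, and the Grainyhead-like and Ovo-like factors and the ESRP splicing factors maintain epithelial transcription and splicing. Fibroblasts lack most of these structures, and a mesenchymal-to-epithelial transition is an early step when they are reprogrammed.

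Values are normalised read counts, that is, reads scaled by the authors to a common library size. The depth was 38110410 to 52946856 reads on genes per library, and 1 read was worth 0.888 to 1.18. A gene was called when limma gave a Benjamini-Hochberg adjusted p under 0.05 over 17075 genes together with a log2 difference of at least 1 in either direction. All fold changes are on the scale of log2(value + 1), which understates the change of low genes. Marker genes separated MEF from the other lines. The summed value of 12 fibroblast markers was 4325000 to 4508000 in MEF and 84330 to 152200 elsewhere. *Nanog* stood at 34.5 and 36.9 in MEF libraries, at 311 and 349 in the pre-iPS line and at 2490 to 7440 in iPS libraries. The sum of 10 pluripotency markers, *Nanog* among them, did not follow it in pre-iPS cells. That sum was 2371 to 2876 in MEF, 430700 to 457800 in the pre-iPS line and 145100 to 195700 in iPS libraries. The list also holds *Pou5f1* (Oct4) and *Sox2*, which the retroviruses carry, and viral reads were not separated from those of the cell's own genes. The part of viral reads in the sum was not tested. In bulk RNA, fewer cells of a type and less RNA per cell cannot be told apart.

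**Figure D1:**
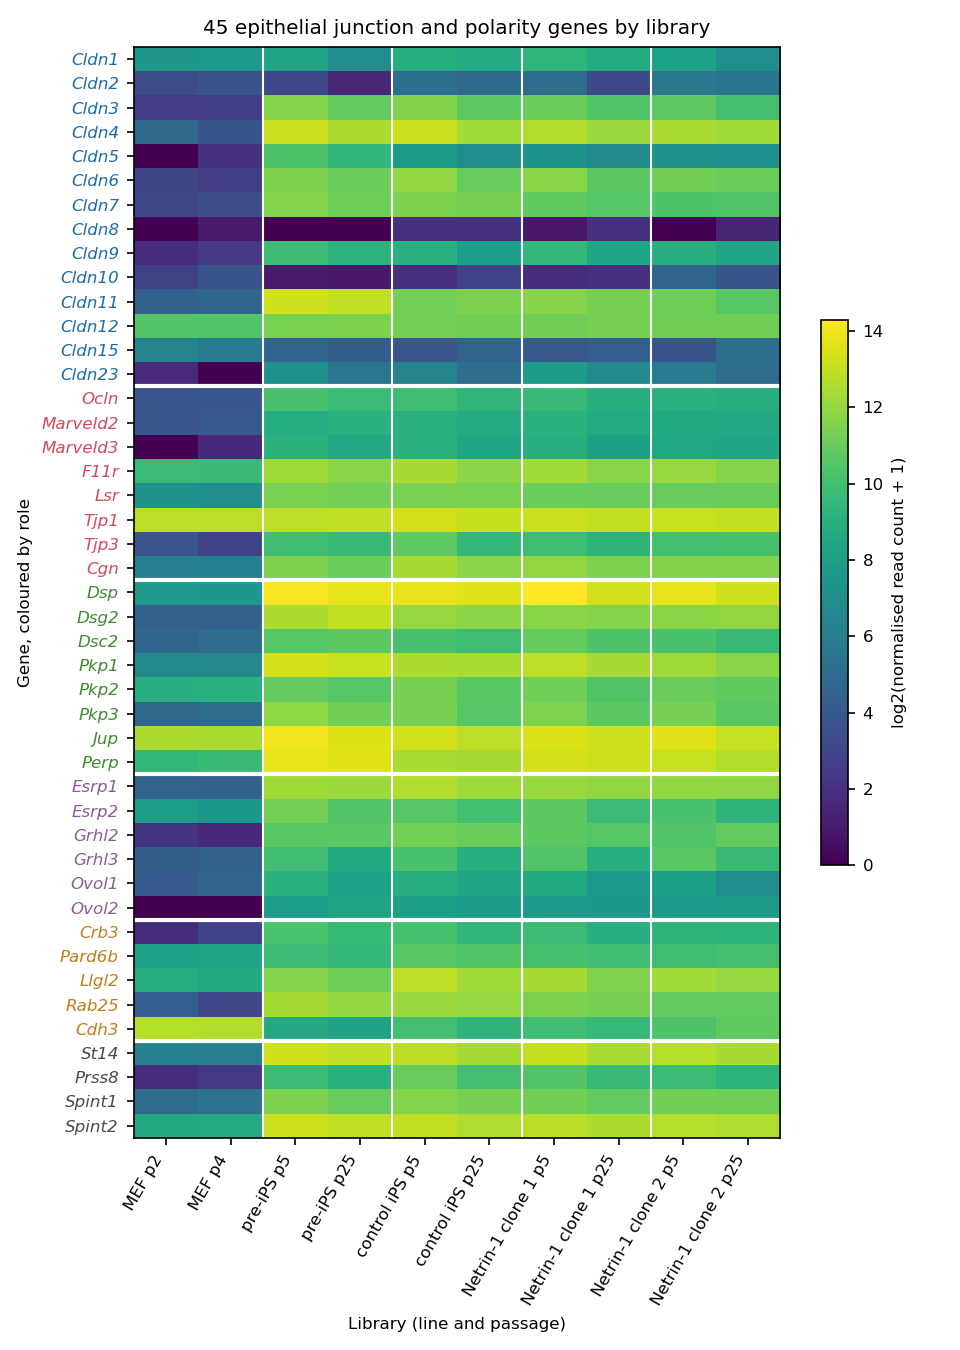
Heat map of log2(normalised read count + 1) for the 45 genes (rows, coloured and separated by role) in the 10 libraries (columns, by line and passage). The 2 MEF columns are dark for most genes, whereas *Cdh3*, *Tjp1*, *Jup* and *Cldn12* are bright in MEF as well, and the pre-iPS columns resemble the iPS columns except at a few claudins and *Cdh3*.

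The first comparison asked which of these genes separate fibroblasts from pluripotent cells. Of the 44 tested members, 37 were lower and 2 were higher in MEF than in the mean of the 3 iPS lines, and 5 were not called. Over all genes tested 48.2% were called, 26.6% lower and 21.6% higher. The median log2 fold change of the members was −5.52, against −0.09 for all genes. With the member at 0 reads placed at its bound, the median was again −5.52. Markers of other cell types differed as well. The sum of 10 trophoblast markers was 1260 in both MEF libraries and 9387 to 30760 in iPS libraries, that of 8 keratinocyte markers 643.4 to 711.6 and 6364 to 15450, and that of 7 macrophage markers 12870 to 12990 and 723.8 to 1564. The trophoblast list holds *Krt8* and *Krt18*, keratins of simple epithelia, and *Sfn* made up most of the keratinocyte sum outside MEF. These sums therefore do not show that trophoblast cells or keratinocytes were present. The part of other cell types in the members' differences was not tested.

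The claudins, the transmembrane proteins that determine which ions and solutes pass a tight junction, held some of the widest differences. *Cldn6*, a claudin of early embryonic epithelia, stood at 7.04 and 5.3 in MEF and at 1650, 2270 and 4060 (lowest, median and highest) in the 6 iPS libraries. Its log2 fold change was −8.45 (SE 0.32, limma adjusted p = 7.05e-08), a 350-fold difference. *Cldn4* stood at 27.7 and 11.8 in MEF and at 4460, 5470 and 9130 in iPS libraries, with a log2 difference of −8.25 (SE 0.34, limma adjusted p = 9.36e-08). For both genes the MEF libraries were far below each iPS library. In all, 9 of 13 tested claudins were lower in MEF. *Cldn2* was among them, at 9.58 and 11.6 in MEF against 8.21, 34.3 and 52.6 in iPS libraries, a log2 difference of −1.42 with overlapping groups (SE 0.53, limma adjusted p = 0.0341). That call was lost without either MEF library (limma adjusted p = 0.159 without passage 2 and 0.101 without passage 4), without the passage 5 control library (0.0636), without either clone 2 library (0.0609 and 0.0523) and after quantile normalization, which moved its log2 fold change to −0.17.

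*Cldn15* was the 1 claudin called higher in MEF, at 81.9 and 60.4 against 11.9, 16.8 and 38.5 in iPS libraries (log2 difference 1.89, SE 0.44, limma adjusted p = 0.00361). *Cldn12*, which has no typical docking motif for zonula occludens proteins, did not reach the minimum change. Its values were 1400 and 1380 in MEF and 2320 to 2600 in iPS libraries (log2 difference −0.79, SE 0.06). *Cldn1* and *Cldn10* were also not called, with log2 fold changes of −0.93 (limma adjusted p = 0.0606) and 0.40 (0.397). *Cldn10* was called higher in MEF after quantile normalization, with a log2 difference of 2.07. These 4 claudins are named because they were the exceptions.

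Among the other tight junction genes, 7 of 8 were lower in MEF. *Marveld3*, a tetraspanning relative of occludin, had 0 and 2 reads in the MEF libraries (values 0.0452 and 2.09) and 279, 356 and 567 in the iPS libraries. The ratio of iPS to MEF was 363, with an exact 95% interval for counting error of 100 to 3000. *Tjp3*, the zonula occludens scaffold found mainly in epithelia, stood at 12.7 and 6.42 in MEF and at 619, 988 and 1700 in iPS libraries (log2 difference −6.59, SE 0.34, limma adjusted p = 3.41e-07). *Tjp1*, the scaffold that fibroblasts also use, behaved otherwise, at 7390 and 7370 in MEF and 8150 to 10600 in iPS libraries. Its log2 fold change was −0.26 with a SE of 0.09.

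In the desmosome 7 of 8 genes were lower in MEF. *Dsg2*, the desmosomal cadherin of simple epithelia, stood at 20.1 and 19 in MEF and at 3220, 3570 and 4230 in iPS libraries (log2 difference −7.47, SE 0.12, limma adjusted p = 2.23e-09). *Pkp3*, a plakophilin of the desmosomal plaque, stood at 27.5 and 32.7 against 1560, 2120 and 2990 (log2 difference −6.08, SE 0.3, limma adjusted p = 2.7e-07). The desmosome gene that was not called was *Jup*, plakoglobin, which adherens junctions also use. It stood at 5830 and 5650 in MEF and at 7390, 10200 and 12900 in iPS libraries, so its MEF values lay just below the iPS range (log2 difference −0.81, SE 0.18). After quantile normalization *Jup* was called lower, with a log2 difference of −1.12.

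All 6 regulators were lower in MEF. *Grhl2*, the Grainyhead-like factor that activates junction genes, had the most negative fold change of the 44 members. It stood at 3.51 and 2.13 in MEF and at 1370, 1740 and 2550 in iPS libraries (log2 difference −8.89, SE 0.17, limma adjusted p = 4.31e-09). *Ovol2*, a zinc finger repressor of mesenchymal genes, had 0 reads in both MEF libraries and values of 199, 223 and 281 in iPS libraries. Taking 3 reads per library as the limit that a count of 0 allows, *Ovol2* was at least 68-fold higher in iPS cells, for counting error only. Of the exon length of *Ovol2*, 16.99% overlaps an antisense gene, and for *Ovol1* and *Lsr* the largest such overlap is 19.78% and 43.55%. The library kit does not mark strand, so reads in those stretches cannot be assigned.

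The polarity, trafficking and cadherin genes split. *Rab25*, an epithelial Rab GTPase of apical recycling, stood at 18.4 and 7.52 in MEF and at 1860, 2760 and 4510 in iPS libraries (log2 difference −7.78, SE 0.26, limma adjusted p = 3.62e-08). *Crb3*, the Crumbs protein of mammalian epithelia, stood at 2.53 and 6.29 against 518, 651 and 1130 (log2 difference −7.14, SE 0.34, limma adjusted p = 2.24e-07). *Cdh3*, which encodes P-cadherin, ran the other way, with 6600 and 6530 in MEF and 629, 1000 and 1740 in iPS libraries. It was 2.70 higher on the log2 scale (SE 0.2, limma adjusted p = 3.06e-06) and its groups did not overlap. The membrane proteases and inhibitors were lower in MEF in 4 of 4 cases. *Prss8*, prostasin, stood at 2.46 and 4.2 against 614, 929 and 2020 (log2 difference −7.93, SE 0.33, limma adjusted p = 1.12e-07). *St14*, matriptase, which acts with prostasin at epithelial surfaces, stood at 76.9 and 75 against 5360, 6260 and 8310 (log2 difference −6.38, SE 0.17, limma adjusted p = 1.34e-08).

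The promoters of several of these genes share a short motif. Bases before the start of transcription are shown for 4 members that were low in MEF and carry an E-box, spelled CAGGTG on one strand of the DNA and therefore CACCTG when the opposite strand is read, the form bound by Snail and Zeb repressors, and then for 2 claudins without it, *Cldn5* and *Cldn11*, that were higher in pre-iPS than in iPS cells. Both of these were low in MEF too, with log2 differences from iPS cells of −6.19 and −6.71, so low values in MEF were found with and without the motif. Each is 250 bases, read 5′ to 3′ on the strand of the gene, from RefSeq on GRCm38.p6, with the motif in capitals. They lie at chr5:134946935-134947184 (minus strand, *Cldn4*), chr17:23679115-23679364 (plus, *Cldn6*), chr3:88548280-88548529 (minus, *Rab25*), chr17:57061951-57062200 (plus, *Crb3*), chr16:18776597-18776846 (plus, *Cldn5*) and chr3:31149670-31149919 (plus, *Cldn11*).
Cldn4: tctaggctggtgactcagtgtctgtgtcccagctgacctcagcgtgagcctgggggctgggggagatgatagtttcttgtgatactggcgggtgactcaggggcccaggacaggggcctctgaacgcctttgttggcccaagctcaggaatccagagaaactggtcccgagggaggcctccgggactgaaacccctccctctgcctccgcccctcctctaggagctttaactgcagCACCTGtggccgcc
Cldn6: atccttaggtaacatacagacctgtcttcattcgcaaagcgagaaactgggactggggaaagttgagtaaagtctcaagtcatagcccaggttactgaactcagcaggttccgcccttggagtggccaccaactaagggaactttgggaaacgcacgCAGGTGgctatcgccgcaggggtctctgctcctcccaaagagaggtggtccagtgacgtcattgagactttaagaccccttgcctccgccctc
Rab25: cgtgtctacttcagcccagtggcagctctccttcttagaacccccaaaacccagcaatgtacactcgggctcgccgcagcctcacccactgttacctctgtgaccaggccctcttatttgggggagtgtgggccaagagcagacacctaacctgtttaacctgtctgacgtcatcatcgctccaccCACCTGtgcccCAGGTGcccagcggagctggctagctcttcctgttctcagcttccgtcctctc
Crb3: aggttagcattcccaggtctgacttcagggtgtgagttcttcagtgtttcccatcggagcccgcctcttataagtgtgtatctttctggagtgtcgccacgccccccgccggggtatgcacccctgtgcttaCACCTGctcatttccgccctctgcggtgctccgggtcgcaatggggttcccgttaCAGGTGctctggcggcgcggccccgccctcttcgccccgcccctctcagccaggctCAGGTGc
Cldn5: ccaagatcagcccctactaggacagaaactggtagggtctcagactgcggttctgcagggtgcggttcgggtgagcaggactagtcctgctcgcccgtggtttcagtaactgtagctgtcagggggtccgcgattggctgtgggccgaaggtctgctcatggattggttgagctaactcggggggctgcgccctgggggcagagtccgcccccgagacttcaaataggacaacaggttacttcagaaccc
Cldn11: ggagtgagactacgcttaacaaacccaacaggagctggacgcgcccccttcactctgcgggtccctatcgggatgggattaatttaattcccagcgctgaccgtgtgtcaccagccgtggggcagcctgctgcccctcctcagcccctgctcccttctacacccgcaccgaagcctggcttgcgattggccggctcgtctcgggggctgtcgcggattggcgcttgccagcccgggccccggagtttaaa
In these stretches the motif began 14 bases before the start in *Cldn4*, 93 in *Cldn6*, 64 and 53 in *Rab25* and 118, 63 and 7 in *Crb3*. RefSeq windows of 300 bases, from 250 before to 50 after a start, were at hand for 27 of the 45 members and numbered 35. In 21 windows the bases after the start lay in an annotated transcript of the gene, and in the others the start rests on RefSeq alone. Of all 35 windows 19 (54.3%) held the E-box on either strand, against 20.2% of 32851 mouse windows and 19.7% of the 16846 windows of genes in the deposited table. By gene, 15 of 27 members (55.6%) had a window with it, against 22.6% of genes in the table. The median GC content was 61% for the members' windows and 59% for those of the table's genes. The Grainyhead-like core AACCGGTT, which reads the same on both strands, was in 0 of the members' windows and in 0.146% of all windows. A match is a description of the letters and not evidence of binding.

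Listed repressors of epithelial genes ran opposite to most members. All 7 of them, *Snai2*, *Twist1* and *Zeb1* included, were called higher in MEF than in iPS cells, where 21.6% of all genes were higher. *Snai2* stood at 3770 and 3720 in MEF and at 86.1 to 146 in iPS libraries, a log2 difference of 5.03 (SE 0.23, limma adjusted p = 1.85e-07). *Twist1* and *Zeb1* were higher by 3.57 and 3.04 on the log2 scale. In pre-iPS against iPS cells 0 of the 7 were called by limma, although 3 had an unadjusted p under 0.05. By the adjusted p alone 1 was higher and 2 were lower, where 18.7% of all genes were higher and 20.8% lower. With the minimum change as well, 16.3% of all genes were called, and 7 genes are too few to set against these shares. *Snai2* was at 175 and 216 in pre-iPS cells. Of 50 tested genes from a wider list of junction and polarity genes, 22 (44%) were lower and 10 (20%) higher in MEF. Over all genes 26.6% were lower and 21.6% higher. The median log2 fold change of this list was −0.35, against −5.52 for the members. The widest differences were those of *Ildr1*, a tricellular junction protein, at 0.0226 and 1.05 in MEF and 332 to 550 in iPS libraries, of *Epcam* (log2 difference −8.15) and of *Elf3*, an epithelial ETS factor (−8.11). *Cdh1*, the epithelial cadherin, stood at 98.8 and 83.6 in MEF and at 14700 to 23300 in iPS libraries. *Amotl2* ran the other way, at 19300 and 18800 in MEF and 2620 to 4170 in iPS libraries.

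**Figure D2:**
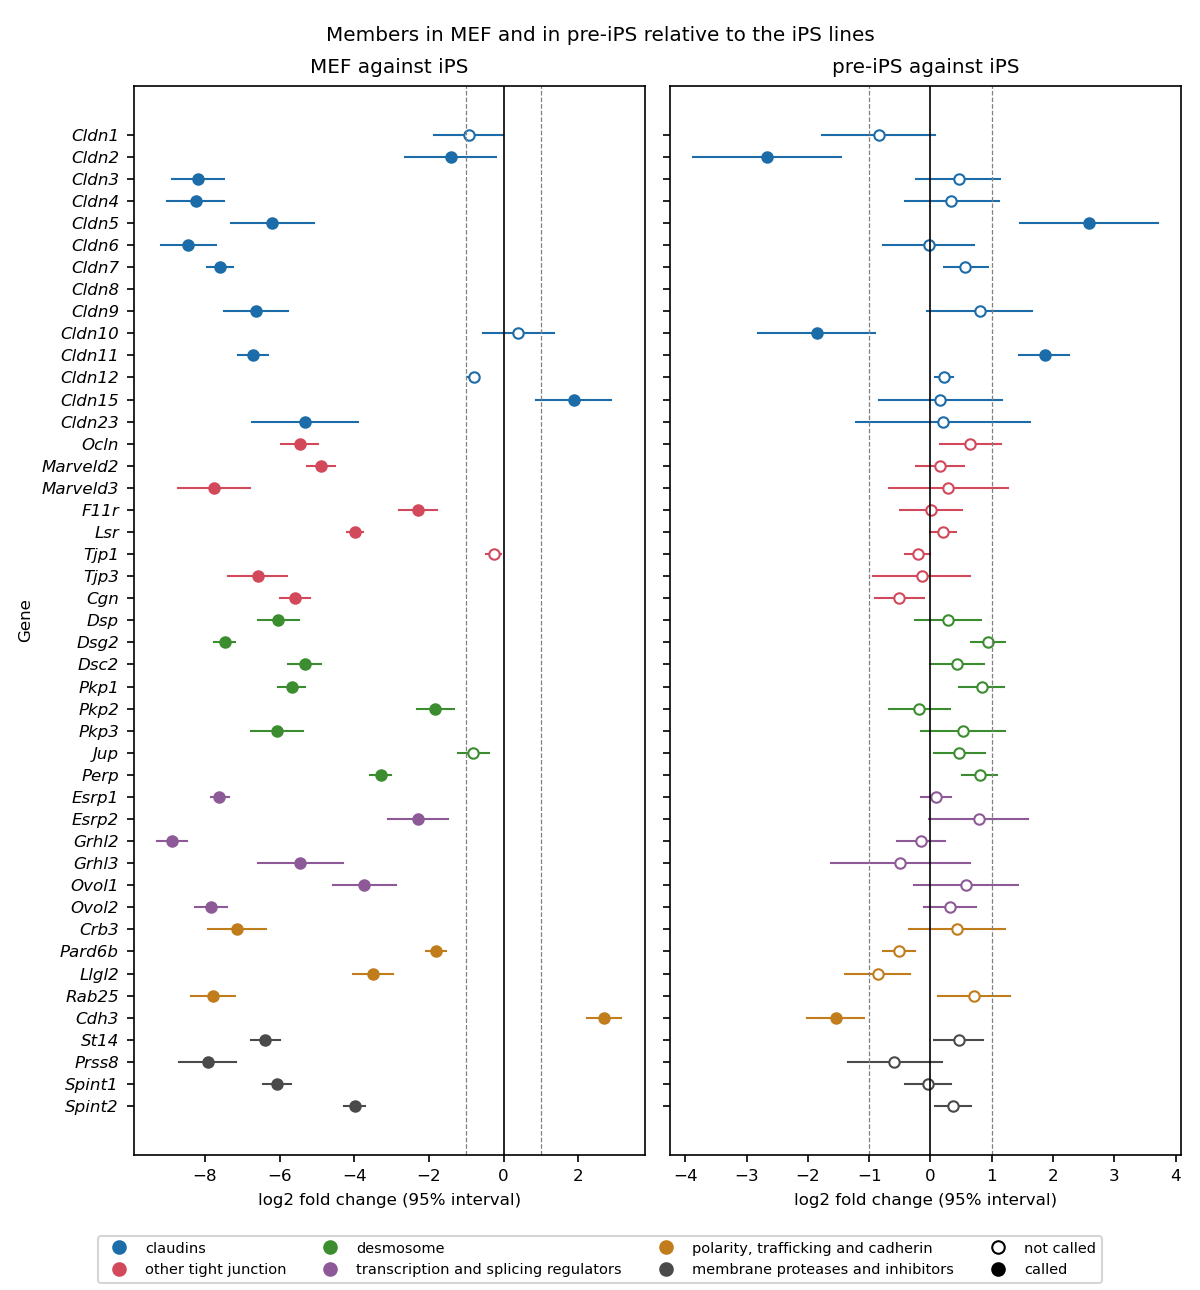
Log2 fold change with its 95% interval (limma) for each member in MEF (left) and in pre-iPS cells (right) against the mean of the 3 iPS lines, with filled points called, open points not called, colours by role and dashed lines at a change of 1. Most members lie far below the lower dashed line on the left, and on the right only *Cldn2*, *Cldn5*, *Cldn10*, *Cldn11* and *Cdh3* are filled.

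The second comparison asked how far the programme had been acquired in pre-iPS cells. Against MEF, 38 of 44 members were higher in pre-iPS cells, 3 were lower (*Cldn10*, *Cldn15* and *Cdh3*) and 3 were not called (*Cldn1*, *Cldn2* and *Tjp1*), where 43.2% of all genes were called, 22.4% higher and 20.9% lower. The call of *Cldn15* was lost without the passage 2 MEF library (limma adjusted p = 0.0994) or the passage 25 pre-iPS library (0.0928). The median log2 fold change was 5.90, against 0.06 for all genes. This comparison uses the same MEF libraries as the first. *Cldn4* stood at 9200 and 5990 in pre-iPS cells, *Grhl2* at 1620 and 1570, and *Ovol2* at 247 and 325, the last at least 85-fold above the limit in MEF.

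Against the iPS lines, 2 of 44 members were higher in pre-iPS cells, 3 were lower and 39 were not called, where 16.3% of all genes were called, 4.71% higher and 11.6% lower. The all-gene split of 804 higher and 1977 lower became 1483 and 1426 after quantile normalization, while for the members 2 were higher and 2 lower. The median log2 fold change of the members was 0.25, against 0.00. For 20 of 44 members the 95% interval lay within 1 log2 unit of 0, a smaller share than the 64.2% of all genes. For the other members the interval reached beyond 1 log2 unit. With the passage as a replicate block the number within was 33, and the share of all genes was not taken for that fit.

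*Cldn11*, a claudin known from myelin and the testis, rose from 1480, 2550 and 3260 in iPS libraries to 9820 and 7830 in pre-iPS cells. This was a log2 difference of 1.86 (SE 0.18, limma adjusted p = 0.000114), and both pre-iPS libraries were above each iPS library. *Cldn5*, the main claudin of endothelial junctions, rose from 110, 149 and 222 to 1260 and 669 (log2 difference 2.58, SE 0.49, limma adjusted p = 0.00382), a call lost without the passage 5 pre-iPS library (limma adjusted p = 0.0518). The summed value of 8 endothelial markers was 3903 to 4640 in pre-iPS cells, 2692 to 4678 in iPS libraries and 1139 to 1224 in MEF, and its members went different ways. *Tek* stood at 1980 and 2550 in pre-iPS cells against 797 to 1370 in iPS libraries, and *Esam* at 1270 and 1070 against 453 to 1000. *Tie1*, at 406 and 395, lay within its iPS range of 46.9 to 475. *Cdh5* was at 26.5 and 36.5 against 63.6 to 160, *Pecam1* at 196 and 558 against 373 to 2950, and *Emcn* had 0 reads in pre-iPS cells and values of 0 to 1.78 in iPS libraries. The part of endothelial cells in the *Cldn5* difference was not tested.

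*Cldn2*, which forms cation pores in leaky epithelia, fell to 7.14 and 1.92 in pre-iPS cells from 8.21, 34.3 and 52.6 in iPS libraries (log2 difference −2.66, SE 0.53, limma adjusted p = 0.00469). It lies on the X chromosome. The call was lost without the passage 25 pre-iPS library (limma adjusted p = 0.0528). *Cldn10* fell as well, on 2 reads in pre-iPS cells and 53 in iPS libraries. The ratio of iPS to pre-iPS was 8.62, with an exact 95% interval for counting error of 2.27 to 73, and limma's call was lost without either pre-iPS library (adjusted p = 0.0525 and 0.051), with a pseudocount of 5, after quantile normalization and in DESeq2 (adjusted p = 0.0874). *Cdh3* stood at 387 and 309 in pre-iPS cells, below the iPS libraries at 629, 1000 and 1740 and far below the MEF libraries (log2 difference against iPS −1.54, SE 0.2, limma adjusted p = 0.000625). No desmosome, other tight junction, regulator or protease gene was called, by limma at these thresholds. By the adjusted p alone, *Dsg2* (log2 difference 0.94), *Pkp1* (0.84) and *Perp* (0.80), all of the desmosome, were among 8 members higher, and *Llgl2*, a Scribble-group polarity gene (−0.86), *Pard6b* (−0.51) and *Cgn* (−0.51) were among 6 lower. All genes gave 18.7% higher and 20.8% lower by that criterion.

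Levels of different claudins can be compared per kilobase of exon, taken over all annotated exons of a gene whatever the isoform. The summed value per kilobase of the 14 claudins was 455.3 and 441.7 in MEF libraries, 18440 and 12950 in the pre-iPS line and 7404 to 13890 in iPS libraries. Of the MEF sum, *Cldn12* made up 73.4% (mean of 2 libraries). In iPS libraries *Cldn4* held 30.5 to 38.5% of the sum, *Cldn6* 12.4 to 17.6%, *Cldn3* 11.8 to 17.4%, *Cldn11* 9.64 to 18% and *Cldn7* 7.47 to 14.5%. In pre-iPS cells *Cldn11* held 30.4% on average and *Cldn4* 26.5%, while *Cldn6* held 9.16%. *Cldn4* was thus first among claudins in each iPS library and *Cldn11* first in both pre-iPS libraries.

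**Figure D3:**
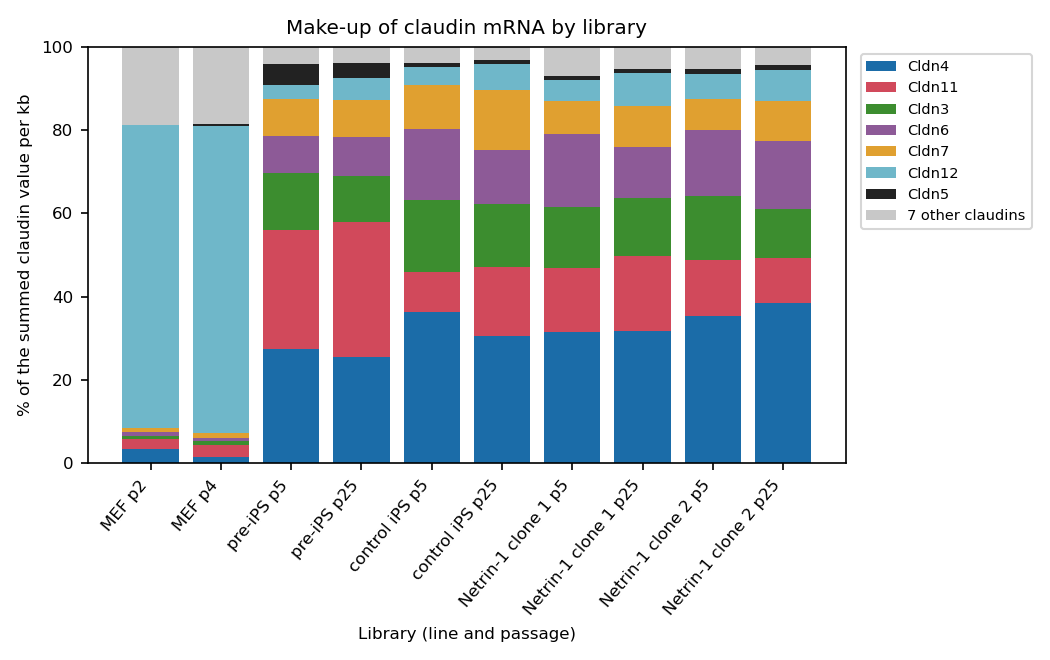
Share (%) of each claudin in the summed claudin value per kilobase of exon, by library, with 7 claudins not shown singly together in grey. *Cldn12* fills most of the MEF bars, *Cldn4* is the largest part of the iPS bars, and *Cldn11* and *Cldn5* are wider in the pre-iPS bars.

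In the wider list, 4 of 50 tested genes (8%) were lower and 1 (2%) higher in pre-iPS than in iPS cells, shares below the 11.6% and 4.71% of all genes. *Ildr2* stood at 9.18 and 5.76 in pre-iPS cells against 88.8 to 415 in iPS libraries (log2 difference −4.44, SE 0.55, limma adjusted p = 0.000444). *Dsc1*, a desmocollin of stratified epithelia, and *Jam2*, a junctional adhesion molecule, had log2 differences of −3.58 and −2.97. *Ehf*, an epithelial ETS factor, was at 6210 and 4720 in pre-iPS cells and 949 to 3040 in iPS libraries, a log2 difference of 1.81 (SE 0.16, limma adjusted p = 6.61e-05).

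The third comparison asked whether the 'rNetrin-1 derived' clones differed from the 'control' iPS line. With both clones together, 0 of 44 members were called by limma, where 2.11% of all genes were (0.99% higher and 1.12% lower). Most members were nonetheless slightly lower, with 33 negative and 11 positive log2 fold changes and a median of −0.25, against −0.01 for all genes. The median was −0.24 for clone 1 alone and −0.27 for clone 2 alone, against −0.01 and 0 for all genes. At an unadjusted p under 0.05 there were 8 members, and edgeR and DESeq2 called 0. For 24 members the 95% interval lay within 1 log2 unit of 0. Among the iPS lines no share of all genes was taken for such intervals or for an unadjusted p under 0.05. Those counts of members therefore cannot be set against one. By the adjusted p alone 3 members passed, 1 higher and 2 lower, where 2.2% of all genes were higher and 1.89% lower. *Cldn7*, a claudin that binds Epcam, stood at 2860 and 2590 in the control line, 1770 and 1460 in clone 1 and 1310 and 1380 in clone 2, a log2 difference of −0.89 (SE 0.16, limma adjusted p = 0.0242). All 4 clone libraries were below both control libraries. *Lsr*, the tricellular junction protein with the antisense overlap above, had a log2 difference of −0.44 (limma adjusted p = 0.046). *Perp*, a desmosome protein, stood at 5800 and 5380 in the control line, 10700 and 9610 in clone 1 and 8900 and 6420 in clone 2, a log2 difference of 0.65 (limma adjusted p = 0.0331).

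For clone 1 alone, 0 of 44 members were called by limma (7 at an unadjusted p under 0.05, where 1.41% of all genes were called, 0.767% higher and 0.638% lower). *Cldn23*, a claudin of the colon surface and epidermis, stood at 227 and 115 in clone 1 against 84.1 and 33.4 in the control line, and 59.5 and 31.4 in clone 2. Its log2 fold change in clone 1 was 1.59 (SE 0.76, limma adjusted p = 0.334), and with the passage as a replicate block it was called (limma adjusted p = 0.0182), in a fit that called 266 genes higher and 224 lower over all, against 131 and 109 without the block. For clone 2 alone 1 member was called, *Cldn7*, which was lower, where 2.42% of all genes were called (1.11% higher and 1.31% lower). Its log2 fold change was −1.02 (SE 0.19, limma adjusted p = 0.0254), and the call was lost in a fit of only these lines (0.0579), without either control library (0.103 and 0.103) and without either clone 2 library (0.104 and 0.0797). *Rab25* stood at 4510 and 4190 in the control line, 2900 and 2620 in clone 1 and 1890 and 1860 in clone 2. Its clone 2 log2 fold change of −1.21 (SE 0.32) missed the threshold in limma (adjusted p = 0.0744), and it was called with the replicate block (limma adjusted p = 0.00119) and by edgeR (adjusted p = 0.008). With the block, *Cldn1* and *Ovol1* were called in clone 2 as well, 4 members in all, while the calls over all genes were 341 higher and 370 lower, against 190 and 223 without it.

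Between the clones 0 members were called by limma, 9 had an unadjusted p under 0.05, and 0.966% of all genes were called, 0.714% higher and 0.252% lower. With the replicate block 2 were called lower in clone 2, *Cldn1* (log2 difference −1.37) and *Cldn23* (−1.88), and over all genes 221 were called higher and 106 lower, against 122 and 43 without it. The median log2 fold change of genes on chromosome 8 was 0.183 in clone 2 against the control and 0.17 against clone 1, and that on X 0.134 and 0.163. *Cldn23*, *Marveld3*, *Esrp2* and *Cdh3* lie on chromosome 8 and *Cldn2* on X. *Cdh3* was 0.88 higher in clone 2 than in the control on the log2 scale (limma adjusted p = 0.0981). The part of the chromosome in these differences was not tested. In the wider list 3 of 50 tested genes were called for both clones together, 1 higher (2%) and 2 lower (4%), where 2.11% of all genes were called. *Crb2*, a Crumbs family gene, was higher, at 199 to 431 in the clones against 120 and 135 in the control line (log2 difference 1.22, SE 0.23, limma adjusted p = 0.0278). *Ap1m2*, an epithelial sorting adaptor subunit, was lower, at 658 to 1270 against 3430 and 2660 (log2 difference −1.72, SE 0.36, limma adjusted p = 0.0384). *Ehf* was also lower (log2 difference −1.37, SE 0.17, limma adjusted p = 0.00523), from 3040 and 2760 in the control line to 949 to 1340.

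**Figure D4:**
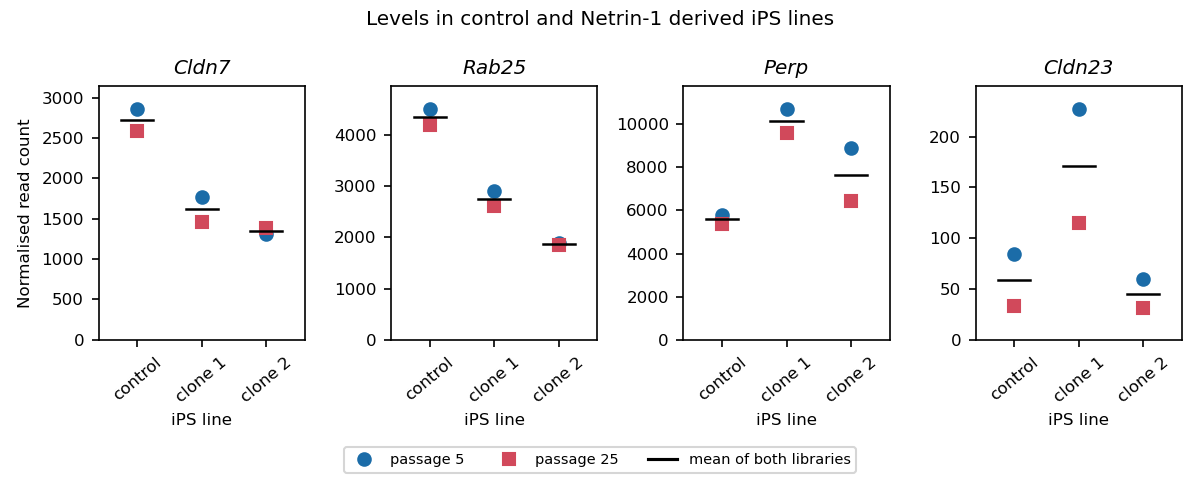
Normalised read counts of *Cldn7*, *Rab25*, *Perp* and *Cldn23* in the control iPS line and clones 1 and 2, with 1 point per library (circle passage 5, square passage 25) and a bar at the mean of both. *Cldn7* and *Rab25* are highest in the control line, *Perp* is lowest there, and *Cldn23* is highest in clone 1.

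The fourth comparison asked what changed between passages 5 and 25, over the 8 libraries that are not MEF, fitted with a term for each line. A difference in handling shared by all libraries of a passage cannot be told apart from passage in this design. Of 44 members 2 were called, both lower at passage 25, and 0 were called higher, where 1.69% of all genes were called, 1.29% lower and 0.398% higher. *Grhl3*, the Grainyhead-like factor of the epidermal barrier, fell from 978 to 408 in the pre-iPS line, from 1150 to 503 in the control line, from 1340 to 497 in clone 1 and from 1570 to 805 in clone 2. Its log2 fold change was −1.21 (SE 0.09, limma adjusted p = 0.00129), and each line's passage 25 value was below its own passage 5 value. *Cldn23* fell from 144 to 48, from 84.1 to 33.4, from 227 to 115 and from 59.5 to 31.4 in the same order of lines, a log2 difference of −1.19 (SE 0.18, limma adjusted p = 0.0113). The *Cldn23* call was lost without either pre-iPS library (0.0606 and 0.0557) or either clone 1 library (0.0726 and 0.0684). Without the block for the line neither gene was called.

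Smaller falls were common among the members. By the adjusted p alone 21 of 44 were lower at passage 25 and 0 were higher, where 7.63% of all genes were lower and 3.31% higher. The 21 included 6 claudins, 5 desmosome genes, 3 regulators and 3 of the proteases and inhibitors. The log2 difference was −0.72 for *Cldn3* and −0.73 for *Pkp3* (limma adjusted p = 0.00135 for each), −0.84 for *Esrp2*, an epithelial splicing factor (0.0021), and −0.82 for *Ovol1* (0.00886). The count was 9 without either pre-iPS library and 6 without either clone 1 library, and 22 in edgeR and 25 in DESeq2. The median log2 difference was −0.42, against −0.01 for all genes.

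Counted within each line, with no test, 28 of 44 members (63.6%) were lower at passage 25 in all 4 lines, against 20.9% of all genes, and 0 were higher in all 4, against 15.4%. *Grhl2* and *Ovol2* did not follow this, with passage differences of −0.02 and 0.05 (SE 0.11 and 0.13), nor did *Dsg2* at 0.06 (SE 0.1). A difference of the passage change between pre-iPS and iPS lines was called for 0 of 44 members (limma interaction, 2 at an unadjusted p under 0.05). With 1 pre-iPS line of 2 libraries this test can find little. Its 0 calls do not show that the change was the same in both. Marker lists of other epithelia differed between passages too, given here with no test. The summed value of 8 keratinocyte markers was 9873 to 15450 at passage 5 and 5702 to 9164 at passage 25, and *Sfn* made up most of it, at 8430 to 12600 and 4950 to 7330. Within that list *Krt10* was higher at passage 25 in each line, at 151 to 200 and 205 to 335, and *Krt1* was higher in the control line (350 and 831) and clone 1 (514 and 922). The summed value of 10 trophoblast markers was 19540 to 30760 at passage 5 and 9387 to 10460 at passage 25. That list holds *Krt8* and *Krt18*, the keratins of simple epithelia, with *Krt8* at 12200 to 19800 at passage 5 and 4340 to 7600 at passage 25. The part of other cell types in the passage differences was not tested.

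**Figure D5:**
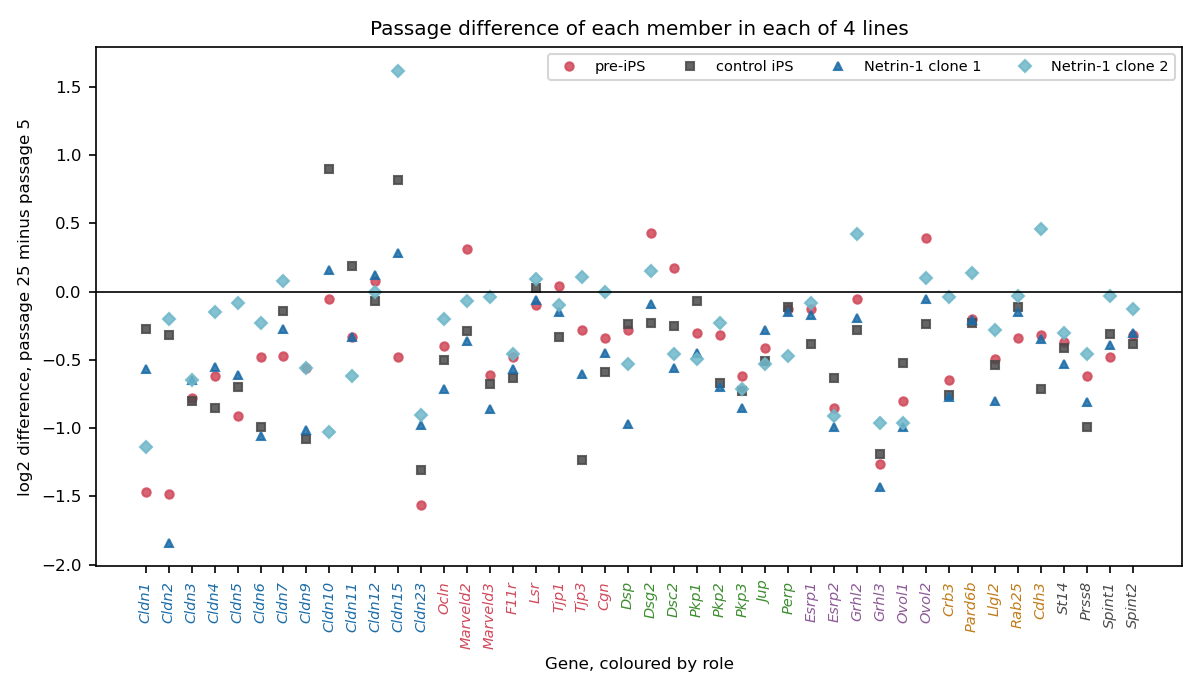
Log2 difference between passage 25 and passage 5 for the 44 tested members, with 1 symbol for each of the 4 lines and gene names coloured by role. Most symbols lie below 0, and those of *Grhl3* and *Cldn23* lie at −0.9 or below in each line.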

How the data were processed

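RNA-sequencing of 10 libraries (50-nucleotide single reads, unstranded poly(A) kit) was processed by the authors with TopHat2 2.0.8b, HTSeq 0.5.3p9 and edgeR on mm10, per the submitters' processing notes. The annotation is not given in the sources used here. The deposited values are a signal per gene, edgeR pseudo-counts scaled to a common library size. Whole reads were recovered from them for 100% of values in each library (tolerance 0.1 read), with the MEF pair adjusted as 1 group at a dispersion of 0.000389.

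The 17075 genes that reached 10 in 2 or more libraries were fitted with limma 3.58.1 in R 4.3.3 (lmFit, eBayes with trend) to log2(value + 1). The model held a mean per line (5 lines, 10 libraries) or, for passage, line and passage terms (8 libraries that are not MEF). The fits were repeated with a pseudocount of 5 or 0.5, without a filter, with a mean of at least 50, the adjusted p alone, quantile normalization, only the lines compared, passage as a replicate block, no line block, edgeR 4.0.16 and DESeq2 1.42.0 on the recovered reads, and leaving out each library. Deviations of equal passages from their line means correlated at 0.235 to 0.504 over the 6 pairs of lines, so libraries of equal passage share part of their deviation. Passage and a shared difference in handling cannot be told apart as its source. Values per kilobase and positions use GENCODE M21 (GRCm38), in which 45 of 45 members matched, and promoters use RefSeq. Intervals and limits cover counting error only. The fits were also run on simulated reads with the same spread in every library and, for the lines, no passage effect. That run therefore does not cover the pairing by passage or the unequal spread of these lines.

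Members and lists were chosen with earlier results of these data known. Full values are given for members called among iPS lines or between passages and, in each role, the 3 with the largest change called in pre-iPS and the 2 in MEF against iPS. Others were named after their values were seen.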

Additional observations from a re-analysis of the deposited data

How the results depend on the processing

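Fold changes of called members kept their direction under every alternative run, and calls were kept in 694 and lost in 6 pairs of member and alternative for MEF against iPS, 86 and 7 for pre-iPS against iPS, 732 and 4 for pre-iPS against MEF, 14 and 5 for clone 2 against control, and 26 and 6 for passage. With only genes of a mean of at least 50, which tests fewer genes, 1 member was higher in MEF than in iPS cells, 1 was lower in pre-iPS than in iPS cells and 1 was lower in pre-iPS cells than in MEF. With the adjusted p alone, the members called were 8 higher and 6 lower in pre-iPS against iPS cells, 3 in both clones and 1 in clone 1 against the control, and 21 between passages. With the passage as a replicate block, 1 member was called in clone 1 and 4 in clone 2 against the control, 2 between the clones, and 33 had an interval within 1 log2 unit in pre-iPS against iPS cells. The block changed no other count of calls. Clone 2 against the control gave 2 members with a pseudocount of 5, 3 after quantile normalization, 2 in edgeR and 2 in DESeq2, where 1 adjusted p was not given. Without the block for the line, 0 members were called between passages, and 0 by the adjusted p alone.

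Leaving out 1 library at a time gave 1 to 4 members lower in pre-iPS against iPS cells, 0 to 2 called in clone 2 against the control, 1 to 3 called between passages, 6 to 22 lower between passages by the adjusted p alone, and 14 to 23 with an interval within 1 log2 unit. A line left with 1 library was assumed to vary like the others. The cause of these changes was not tested beyond the fewer genes or libraries that an alternative holds. Counts by the adjusted p alone and of intervals were added after seeing the data. With 2 libraries per line, changes near 1 log2 unit are the limit of what the calls can show. The near-zero members in MEF (*Ovol2*, *Marveld3*, *Cldn5*, *Cldn23*) are limited by reads.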
